A study of Mus musculus with 2 samples.

Results

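Of the 13341 NANOG peaks in the series-level mm9 list, 248 (1.86%) were centred in an exon of a protein-coding gene and lay more than 1 kb from every transcript start of such a gene. The exons and starts were those of all transcripts of the 22367 protein-coding genes of GENCODE vM1 on the assembled chromosomes. A peak's centre was its midpoint, because the list holds broad peaks without summits. Where transcripts differed, coding sequence took priority over the 5' untranslated, then the 3' untranslated, then an exon of a non-coding transcript of the gene. The 248 peaks lay in 244 genes.

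The peaks come from chromatin immunoprecipitation followed by sequencing (ChIP-seq) with an antibody to NANOG in cells of the E14TG2a.4 line. These are embryonic stem cells from a male 129/Ola mouse embryo, with an age of 3.5 day in the labels. There was 1 group of 2 biological replicates, each with 1 technical replicate, and no treatment or genotype to compare. Both replicates derive from 1 donor and 1 line. The control experiment that the labels name as possible was not used here.

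NANOG is a homeodomain transcription factor that helps keep embryonic stem cells in the self-renewing state. It binds DNA together with OCT4 and SOX2 at many enhancers, most of them in introns and between genes, where ESRRB and KLF factors also bind. An exon can hold such a binding site in sequence that is also translated, or in an untranslated end that carries signals for mRNA stability and translation.

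The following stretches are shown because each places a word of a stem cell or developmental factor, wholly within coding sequence, under a NANOG peak. They were taken in order of enrichment from coding-exon peaks with such a word within 50 bp of the midpoint, where the 30 bases around the word lay in coding sequence of the host gene. Not every peak that meets this is shown. Each is 30 bases of the mm9 plus strand, 5′ to 3′, and the capitals mark the word.
F10, ESRRB word, chr8:13050692-13050721: acagtgagctTGACCTTGAagacgccctgc
Aldh4a1, ZIC word, chr4:139198156-139198185: ctggaggaacaCAGCAGGatcaaagtgggg
Grin2b, SOX word, chr6:135724863-135724892: gctacagcagaGACAATGagcagcatcaca
Zmym4, SOX word, chr4:126546125-126546154: gtgtttaacagGACAATGggcgagtaagcg
Ptprd, homeobox word, chr4:75717907-75717936: tcttcaaaggcaCAATTAtaatgtagtaac
Itgb7, ESRRB word, chr15:102047433-102047462: ggggccaaggTCAAGGTCAcattcacgtca
Mtrf1l, KLF word, chr10:4527611-4527640: gaggtgactgcGGGTGTGGgtggtcaggaa
In Grin2b and Zmym4 the same SOX word stood on the minus strand, with its middle base at 13 and -26 bp from the peak's midpoint. A word is a match of letters and does not show that the factor was bound there. Of the peaks shown, only that of Mtrf1l, with an enrichment of 7.72, was absent from the replicate 2 list. In the replicate 1 list the overlapping peaks of Aldh4a1 and Mtrf1l had their midpoints in introns.

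The 3' untranslated exons held 120 of the 248 peaks (48.4%, exact 95% Clopper-Pearson interval 42.0 to 54.8), and coding exons held 87 (35.1%, 29.2 to 41.4). Exons of non-coding transcripts of protein-coding genes held 37 (14.9%), and 5' untranslated exons held 4 (1.61%). Of the 58.1 Mb of exon sequence more than 1 kb from a start, coding sequence made up 45.9%, the 3' untranslated 43.1%, non-coding transcripts 9.996% and the 5' untranslated 0.994%. Coding exons thus held 3.26 peaks per Mb (exact 95% Poisson interval 2.61 to 4.02), and 3' untranslated exons 4.79 (3.97 to 5.73). Introns held 5.69 per Mb (5.54 to 5.85), an interval that lies above that of coding exons and overlaps that of the 3' untranslated. These intervals, here and below, cover counting error only, and the part that read mappability or sequence composition plays in the densities was not tested.

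**Figure D1:**
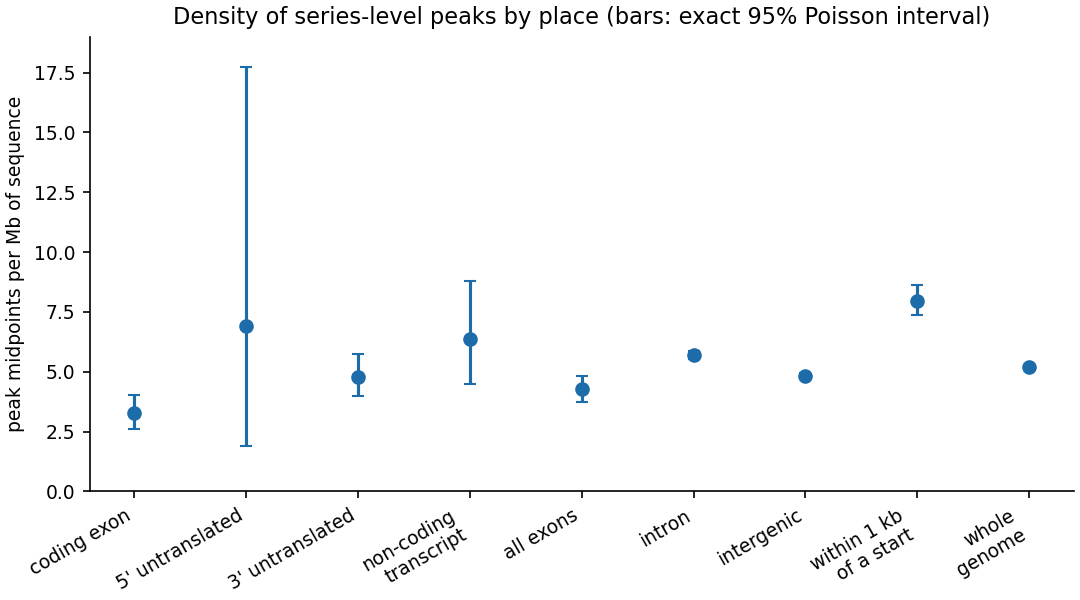
Peak midpoints per Mb of mm9 sequence without N (y axis) for each exon class and for the other places (x axis), with points for the density and bars for the exact 95% Poisson interval. Coding exons sit lowest at 3.26 per Mb, and sequence within 1 kb of a start sits highest at 7.97; the 5' untranslated point rests on 4 peaks.

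The exons that carried a peak were long. The median length was 2692.5 bp for the 3' untranslated peaks, against 937 bp for all 3' untranslated exons counted, and 174 bp against 126 bp for coding ones. A longer exon has more bases in which a midpoint can fall. Most of the peaks, 165 of 248, lay in the last exon of the transcript that placed them. Of the rest, 76 lay in an internal exon, 3 in a first exon and 4 in a single-exon transcript. The 165 included 114 3' untranslated and 33 non-coding-transcript peaks. The share of exon sequence in last exons was not counted, so no preference for last exons is shown. Of the 87 coding peaks, 69 lay in an internal exon and 18 in a last one.

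Peaks had a median width of 849.5 bp, so those at coding exons reached far into introns. A median of 27.1% of the width of a coding-exon peak lay in exons, and 8 of 87 lay wholly in exons. For the 3' untranslated peaks the median was 100%, and 81 of 120 lay wholly in exons. "Centred in a coding exon" therefore describes the midpoint more than the span of most coding-exon peaks.

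**Figure D2:**
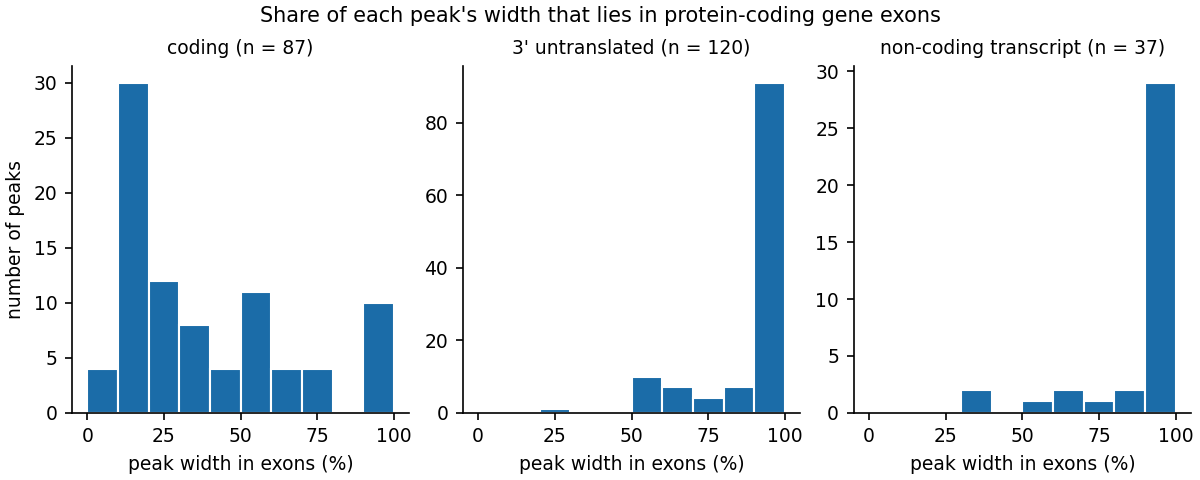
Number of peaks (y axis, scaled separately in each panel) by the percentage of the peak's width that lies in exons of protein-coding genes (x axis), for coding, 3' untranslated and non-coding-transcript exons. Most 3' untranslated and non-coding-transcript peaks fall in the bin nearest 100%, whereas coding-exon peaks have a median of 27.1%.

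The centres were set beside those in the replicate lists. The series-level list was made from the same experiment, so this is a description and not an independent check. Of the 247 peaks with a partner in the replicate 1 list, the partner's own midpoint was exonic for 225 (91.1%, 86.8 to 94.3), and the other 22 midpoints were in introns. The midpoints differed by a median of 27 bp. For coding exons 69 of 87 partners stayed exonic (79.3%), and for the 3' untranslated 118 of 119. In replicate 2, 107 of 113 partners stayed exonic. Intron peaks kept their place in replicate 1 for 99.4% of partners. The part that the length of the exon or intron plays in these shares was not tested.

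Enrichment, the authors' ratio for each peak, ran from 2.46 to 46.31 with a median of 7.275, against 7.38 over all 13341 peaks. The median was 6.04 in coding exons, 7.72 in the 3' untranslated, 7.55 in non-coding transcripts and 10.2 over the 4 of the 5' untranslated. Of the 1000 peaks of highest enrichment in the whole list, 13 were exonic (1.30%), and 1 of these was among the highest 100.

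Across all peaks, the exonic ones did not pass the test against any other place. A linear model with HC3 standard errors gave an enrichment ratio to intron peaks of 0.957 (95% interval 0.896 to 1.02) and a width ratio of 0.991 (0.966 to 1.02). In a logistic model, the odds of presence in both replicates relative to intron peaks were 0.970 (0.751 to 1.25). Over the 9 contrasts with intron, intergenic and promoter peaks, the two-sided Benjamini-Hochberg adjusted p ran from 0.506 to 0.876. A p here measures only the spread between peaks of 1 list, since peaks are not biological replicates.

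Fitted by exon class, 1 of 12 contrasts passed the threshold of 0.05. Coding-exon peaks had lower enrichment than intron peaks, with a ratio of 0.852 (0.768 to 0.944) and an adjusted p of 0.0277 in the linear model. The classes were separated after the lower coding median had been seen. The call was lost in 6 of the 7 other settings in which this contrast was fitted, among them both margins around a start and the list of either replicate alone, although the difference was below 0 in all 7. Against 3' untranslated peaks the ratio was 0.856 (0.748 to 0.980) with an adjusted p of 0.108.

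**Figure D3:**
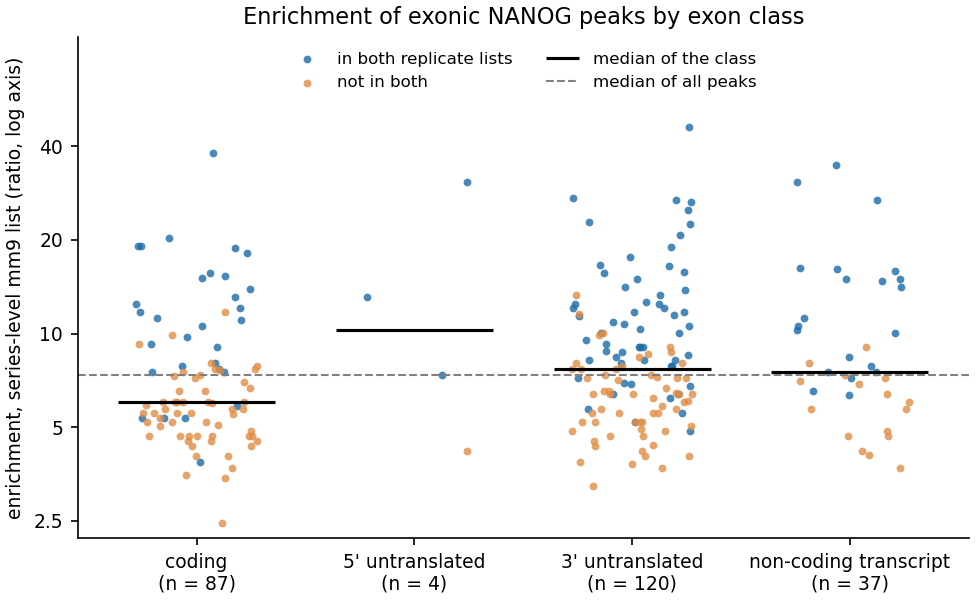
Enrichment in the series-level list (y axis, ratio, log axis) of each of the 248 peaks by exon class (x axis), coloured by presence in both replicate lists, with a black line at the class median and a dashed line at the median of all peaks, 7.38. Coding exons have the lowest class median, 6.04, and all 30 peaks above an enrichment of 15 are in both lists. Of all peaks in the highest quartile of enrichment, which starts lower at 11.41, 95.8% are in both lists.

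In the list of replicate 1, 247 of the 248 peaks were present (background over all peaks 99.6%), and in that of replicate 2, 113 (45.6%; background 46.9%). Both lists held 113 (45.6%, 39.3 to 52.0; background 46.8%), which is near the background. The lists differ in size, with 22082 peaks in replicate 1 and 6618 in replicate 2, so replicate 2 sets the count. The series-level list was made from the same experiment, which makes presence a description and not an independent test.

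By class, 30 of 87 coding-exon peaks were in both lists (34.5%, 24.6 to 45.4), 59 of 120 of the 3' untranslated (49.2%, 39.9 to 58.4), 21 of 37 of the non-coding transcripts (56.8%) and 3 of 4 of the 5' untranslated. The odds of coding-exon against intron peaks were 0.610 (0.391 to 0.952), with an adjusted p of 0.108 in the logistic model. With log2 enrichment and log2 width in the model the odds ratio was 0.887 (0.477 to 1.65).

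Presence followed enrichment. In the lowest quartile of enrichment over all peaks, 6 of 66 exonic peaks were in both lists (9.09%; background 9.35%), and in the next 14 of 64 (21.9%; background 23.7%). In the quartile above the median, 40 of 62 were (64.5%; background 58.4%), and in the highest 53 of 56 (94.6%; background 95.8%). Exonic peaks in both lists had a median enrichment of 10.93, and those in the replicate 1 list alone 5.71.

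**Figure D4:**
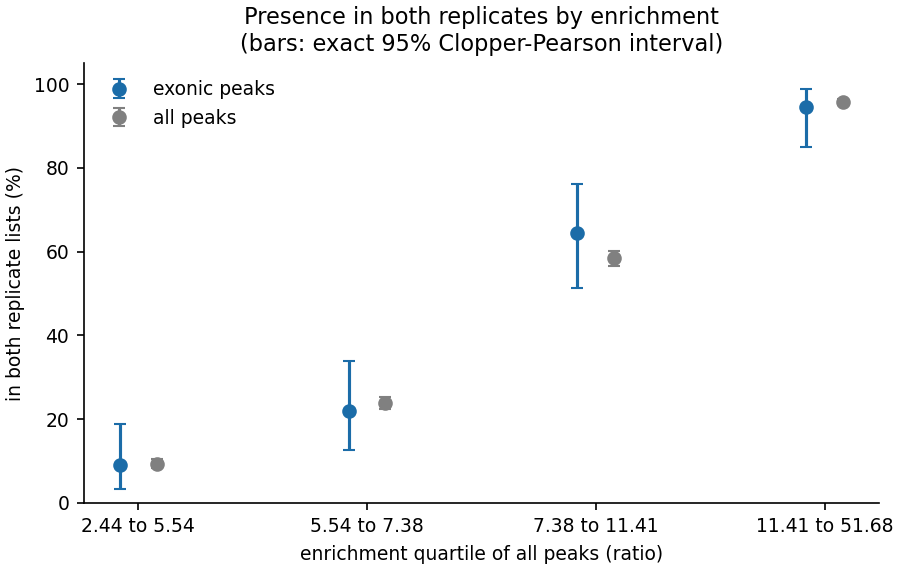
Percentage of peaks in both replicate lists (y axis) by quartile of enrichment over all 13341 peaks (x axis, ratio), for the exonic peaks and for all peaks, with bars for the exact 95% Clopper-Pearson interval. Both sets rise together, from 9.09% and 9.35% in the lowest quartile to 94.6% and 95.8% in the highest.

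Among coding exons, the highest peak lay at exon 4 of 8 of Slc35f2, a member of the solute carrier family (chromosome 9, 53653926 to 53655060). Its enrichment was 38.09 in the series-level list, 76.76 in replicate 1 and 35.76 in replicate 2. Enrichment was higher in the replicate 1 list than in the series-level list for all 247 partners, so values are compared within a list only. F10, the gene of coagulation factor X, had 19.13 at exon 7 of 9, with 37.4 and 12.42 in the replicates.

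Rwdd4a also had 19.13, at exon 5 of 8, with 38.05 in replicate 1 and 13.85 in replicate 2. Aldh4a1, which encodes a mitochondrial dehydrogenase of proline breakdown, had 18.79 at exon 10 of 15, with 35.78 and 16.24. These 4 coding-exon peaks were all in both lists, as were 95.8% of all peaks in the highest quartile of enrichment. In replicate 1 the partner midpoints of Rwdd4a and Aldh4a1 lay in introns, 102 and 4 bp from the series-level midpoints. The peak at Grin2b, a subunit gene of the NMDA glutamate receptor, had 18.12 and covered exon 10 of 15 with 11.4% of its width in exons.

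The highest of all 248 peaks lay in the last exon of Palm2, a paralemmin family gene, in 3' untranslated sequence (chromosome 4, 57703213 to 57704464). It ranked 17 among all peaks, with an enrichment of 46.31, and 93.67 and 55.4 in replicates 1 and 2. Only 1 of 5 transcripts spanning the midpoint had this exon, so the same place is intronic in the others. Among 3' untranslated peaks Pcnx had the next highest value, 27.35, at exon 36 of 36 (54.97 and 32 in the replicates).

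Ifitm7, of the interferon-induced transmembrane family, had 26.85, with 54.32 and 25.79 in the replicates. Cradd, which encodes a death-domain adaptor, had 26.51, with 51.39 and 27.22. Mrps5, a mitochondrial ribosomal protein gene, had 25, with 50.74 and 18.15. Rchy1, which encodes a ubiquitin ligase, Mknk1, a kinase of the translation factor eIF4E, and Rab6b, a GTPase of vesicle traffic, had 22.82, 22.49 and 20.81. All of these 3' untranslated peaks were in both lists, as were 95.8% of all peaks in the highest quartile of enrichment.

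Of the 4 peaks in 5' untranslated exons, 1810030N24Rik had an enrichment of 30.71 (60.17 in replicate 1 and 32.48 in replicate 2). Klhl12, which encodes an adaptor of the cullin-3 ubiquitin ligase, had 13.09. Pax6, a paired-box factor of eye and brain development, had 7.38, and Gm839 had 4.2. The Gm839 peak was the only one of the 4 absent from the replicate 2 list. Of transcripts spanning the midpoint, 4 of 8 had the exon at 1810030N24Rik and 1 of 25 at Pax6. At Klhl12 4 of 4 had it, and at Gm839 1 of 1. The replicate 1 partner midpoint of 1810030N24Rik was intronic, and both partner midpoints of Klhl12 were in coding sequence.

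Among exons of non-coding transcripts, Dpm1, the catalytic subunit of dolichol-phosphate mannose synthase, had 34.74, Cdca3, a cell-cycle gene, 30.71 and Tle1, a Groucho-family corepressor, 26.85. At Dpm1, 1 of the 8 transcripts spanning the midpoint had the exon, at Cdca3 2 of 6 and at Tle1 1 of 12. Of the 37 such peaks, 1 lay in an exon shared by every transcript over the midpoint. The counts were 83 of 87 for coding and 103 of 120 for 3' untranslated peaks. A midpoint entered the non-coding class only where no transcript with coding sequence had an exon. The low count in that class is thus largely set by its definition.

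Tle1, Cradd and Gfpt2 were the genes with more than 1 exonic peak. Tle1 had 3, at enrichments of 26.85, 4.87 and 3.86. Cradd had 2, at 26.51 in the 3' untranslated end and 11.75 in a coding exon, and the coding one was absent from the replicate 2 list. Gfpt2, an enzyme of hexosamine synthesis, had 2, at 11.08 and 10.57, both in both lists.

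The lowest enrichment was at exon 13 of 14 of Tulp4, with 2.46 over a 2479 bp peak, the widest of the 248. Pigl, an enzyme of GPI-anchor synthesis, had 3.24, Zfp780b, a zinc-finger gene, 3.44, Dzip1 3.52 and Tmem91 3.69. None of these 5 was in the replicate 2 list, and 9.35% of all peaks in the lowest quartile of enrichment were in both lists. At the 1 kb limit, the nearest peaks inside were those of Dpm1 at 1009 bp from a start, Pax6 at 1010 and Iffo1 at 1030, with enrichments of 34.74, 7.38 and 4.87. The nearest outside were those of Syngr1 and Gm10128 at 952 bp and Eml3 at 944, with 12.92, 9.42 and 8.56.

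The exonic peaks lay a median of 9.925 kb from the nearest start of a protein-coding transcript. The median was 18.4 kb for intron peaks, 47.4 kb for intergenic peaks and 28.2 kb for all peaks. Exonic peaks were chosen by their place in genes and their distance from starts, so this distance is partly set by the choice. For 70 of 248 that start belonged to a gene other than the host, and 45 of these 70 were 3' untranslated peaks. In 164 cases the exonic peak was the only peak centred in the gene body. Of the 244 host genes, 72 also had an intron peak and 16 a promoter peak, counted to 1 kb beyond the gene's ends. No like counts for intron peaks are given here, so these do not show whether exonic peaks stood alone more often.

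None of the 30 listed core and naive pluripotency genes with an eligible exon hosted an exonic peak, nor did any of 40 polycomb and chromatin genes, 36 signalling genes or 17 adhesion and matrix genes. The share of all 19063 symbols with an eligible exon that hosted one was 1.28%, so lists of this size hold few or no hosts at that share. Of 30 zinc-finger co-factor and developmental genes, 2 were hosts, Pax6 and Zeb2. The Zeb2 peak, in an exon of a non-coding transcript, had an enrichment of 10.24. Of 388 genes of the Zfp, Zscan and Zkscan families 6 were hosts (1.55%), of 367 Slc genes 4 (1.09%) and of 40 Fox genes 2 (5%). Of 10 Pax, 17 Klf, 16 Lam, 36 Pcdh and 56 Adam genes 1 each was a host. The same held for 72 genes with an Rpl or Rps prefix. That host was Rps6kc1, a gene of the ribosomal protein S6 kinase family and not a ribosomal protein gene. Of 117 Olfr, 136 Vmn and 36 Hox genes none was, nor was any gene of the other families searched. No set test was run.

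The mm10 lists were compared by gene symbol only. Of 242 host genes found by symbol, 210 (86.8%, 81.8 to 90.8) held a summit of the authors' optimal mm10 set in the gene body. The share was 88.3% for hosts of intron peaks and 18.4% for all protein-coding symbols. Both mm9 and mm10 lists come from the same experiment. Mrps5, with an mm9 enrichment of 25, held 0 such summits, as did Iffo1, Zfp780b and Tulp4.

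At the centre, within 50 bp to each side of the midpoint, both strands were searched for an OCT octamer (ATGCAAAT or ATGCTAAT), a SOX word (CATTGTT or CATTGTC) and an ESRRB word (TCAAGGTCA). At least 1 of these stood in 33 of 248 exonic peaks (13.3%, 9.34 to 18.2), against 14.97% of all peaks, 15.7% of intron peaks and 3.83% of windows at the midpoints of all 201806 eligible exons. By class it stood in 16 of 87 coding (18.4%), 11 of 120 3' untranslated (9.17%) and 4 of 37 non-coding-transcript peaks (10.8%). Of the 33 with a word, 18 were in both lists (54.5%, 36.4 to 71.9), and of the 215 without, 95 (44.2%, 37.4 to 51.1). Both intervals hold the background of 46.8% over all peaks.

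The SOX word alone stood in 9.27% of exonic peaks, 9.63% of all peaks and 3.14% of exon windows. The ESRRB word stood in 2.42%, 1.40% and 0.20% in the same order, and the octamer in 2.82%, 4.37% and 0.51%. A KLF word (GGGTGTGG or GGGCGTGG) stood in 3.23%, 1.79% and 0.81%. A homeobox word (TAATGG or TAATTG) stood in 8.47% of exonic peaks against 13.4% of all peaks and 5.26% of exon windows. The exonic interval for this word ends below the share of all peaks, but the intervals are not adjusted for the number of words searched.

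A ZIC word (CAGCAGG or CCTGCTGGG, of which the longer contains the reverse complement of the shorter) stood in 9.27%, 9.73% and 4.58%. The GATA word was AGATAA, and it stood in 6.45% of exonic peaks, 5.38% of all peaks and 4.10% of exon windows. For TEAD the word GGAATGT was used, which stood in 1.61% of exonic peaks, 2.35% of all peaks and 1.42% of exon windows. Words of AP-1, searched as TGACTCA and as TGAGTCA, stood in 1.21%, 2.17% and 1.27% in the same order. The E-box was CACGTG, at 0.40% of exonic peaks, 0.60% of all peaks and 1.59% of exon windows.

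**Figure D5:**
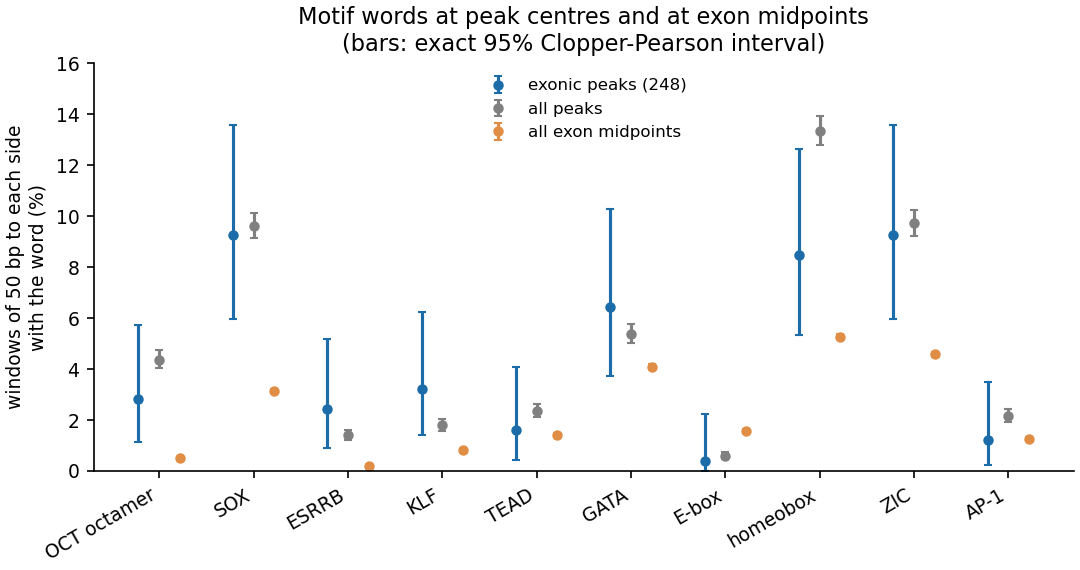
Percentage of windows of 50 bp to each side of a midpoint that hold each word on either strand (y axis) for the 248 exonic peaks, all 13341 peaks and the midpoints of all eligible exons (x axis, factor name), with bars for the exact 95% Clopper-Pearson interval. The SOX, ESRRB and octamer shares of exonic peaks lie above those of exon midpoints, and the homeobox share lies below that of all peaks. The AP-1 and E-box shares of exonic peaks, on 3 peaks and 1 peak, lie below those of exon midpoints. Intervals are not adjusted for the number of words searched.

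Taken over all exon classes, the base composition of the centres lay between that of all peaks and that of exon windows. The classes differ in weight, with 162488 of the 201806 exon windows coding, against 87 of the 248 exonic peaks. Within classes it did not always lie between. The GC content of 3' untranslated peaks was below both, and the CpG share of coding-exon peaks was above both. The median GC content was 46.5% in exonic peaks, 45.5% in all peaks and 49.5% in exon windows. In coding-exon peaks it was 48.5%, against 50.5% in all coding windows, and in 3' untranslated peaks 44.6%, against 46.5%. A CpG stood in the centre of 69.0% of exonic peaks, against 55.7% of all peaks and 81.2% of exon windows. For coding-exon peaks the share was 89.7%, against 85.45% of coding windows.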

How the data were processed

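NANOG ChIP-seq peaks of 2 replicates of 1 cell line were analysed from the authors' mm9 broad-peak lists, 1 per replicate and 1 for the series. In the column order of the list type that the deposited file descriptions name, each peak has the authors' enrichment ratio, −log10 p and q-value. In the optimal mm10 set the deposited signal is on a scale not stated. Not given in the sources used here are the aligner, the peak caller, the reference of the ratio and how the series-level list was combined. Read depth is unknown.

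Peaks were placed with GENCODE vM1 on NCBIM37 (mm9). Presence in a replicate list meant an overlap of at least 1 bp. Linear (HC3) and logistic models over all 13341 peaks were fitted with statsmodels 0.14.6 in Python 3.11.15, and were tested on simulated data. Shares have exact 95% intervals from SciPy 1.17.1. In the class-wise logistic fits at a 2 kb margin, the 2 5' untranslated peaks, both in both lists, were left out because their odds are not finite.

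Named genes host the 15 highest peaks, the 5 highest of each of the coding, 5' and 3' untranslated classes, the 5 lowest, several peaks, a listed gene, or the 3 peaks nearest to each side of the 1 kb limit. An item that meets this rule is not reported here. Some peaks with printed sequences fall outside this rule and were chosen after their values were seen. No sequence was taken from chromosome 18. The members, lists and tests were chosen with earlier results of these data known.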

Additional observations from a re-analysis of the deposited data

How the results depend on the processing

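The number of exonic peaks was 66 at a q-value of at most 0.001, and ran from 134 (replicate 2 list) to 441 (replicate 1 list) when 1 replicate was left out. It ran from 188 to 263 under the other alternatives. The coding share was 25.8% at q of at most 0.001 and 43.3% with transcripts of type protein_coding only, an alternative chosen after seeing the data, and 36.6% to 37.0% with 1 replicate left out. The share in both lists was 32.7% with replicate peaks of q at most 0.05 (33.8% of all peaks), and cannot be computed without a replicate. The median enrichment was 14.85 at q of at most 0.001, and 8.12 to 9.43 with 1 replicate left out, on the scale of the remaining list.

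None of the 9 contrasts between exonic and other peaks passed, and 15 of 51 alternatives changed sign; the cause was not tested. Against promoter peaks the log2 width difference was 0.018 at 500 bp, the log odds of presence -0.11 at 2 kb, and the log2 enrichment difference -0.10 at q of at most 0.001. With enrichment and width in the model the log odds were 0.13 against intron and 0.14 against intergenic peaks, and at q of at most 0.001 they were 0.91 and 0.83. Alone, 3' untranslated peaks gave 0.0056 for log2 width and 0.11 for log odds against intron peaks, and non-coding-transcript peaks 0.10 for log2 enrichment, 0.0072 for log2 width and 0.42 for log odds. Leaving out 1 replicate gave -0.077 to 0.16 for log2 enrichment and 0.0048 to 0.022 for log2 width against promoter peaks. The 0.16, without replicate 2, passed the threshold (adjusted p 0.00363, linear model).

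Coding exons alone gave a log2 enrichment difference to intron peaks of -0.23, which passed. It was -0.20 at 500 bp, -0.22 at 2 kb, -0.058 at q of at most 0.001 and -0.22 with untranslated before coding sequence, and -0.13 to -0.11 with 1 replicate left out, none of which passed. With transcripts of type protein_coding only it was -0.23 and passed. Presence by class could not be fitted at q of at most 0.001. In windows of 100 bp to each side, 6 of 11 motif shares left their interval; a wider window holds more words. No paired analysis was possible because the replicates form a single group. Broad peaks without summits and unknown depth limit how exactly a centre is placed.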
